A study of Bos taurus with 40 samples.

Results

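Conceptuses made by somatic cell nuclear transfer (SCNT) from 2 fibroblast lines were compared. SCNT High is the group made with cells of line 5538 and SCNT Med the group made with cells of line 7711, and the names follow the order of the lines in calving rate. Each line came from an ear skin biopsy of 1 Holstein heifer, so the line, its donor animal and the group cannot be told apart. The comparison took the 10 SCNT High and the 10 SCNT Med arrays, 20 of the 40 arrays analysed here. The other 20 are 10 arrays of SCNT Low, from a further Holstein line, and 10 of IVP, embryos fertilised in vitro, and they serve below only to place the levels of single probes. In all groups RNA came from extra-embryonic (EE) tissue of Day 18 conceptuses, without the embryonic disc, and each conceptus gave 1 array. The study states that the disc was dissected away. In its classification some SCNT Med conceptuses, but no SCNT High conceptus, had no recognisable disc. Abnormally short conceptuses likewise occurred in SCNT Med and not in SCNT High. The labels used here do not give these stages, so donor line and stage were not separated. The methods state that 5 or 6 blastocysts were placed in each recipient cow, and the labels used here do not tie conceptuses to recipients, so arrays of one group may share a recipient.

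In SCNT a somatic nucleus is placed in an enucleated oocyte, whose cytoplasm resets it to an embryonic programme. After hatching, the bovine blastocyst elongates from a sphere to a filament before it attaches to the uterus. Its EE tissue at that time consists mainly of trophoblast, the outer layer that faces the uterus and takes up nutrients, lined by extra-embryonic endoderm. The question of this comparison was whether the EE tissue of conceptuses from the donor line with the highest calving rate differed in expression from that of the line with the intermediate rate.

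Amplified RNA was labelled with a radioactive nucleotide, and nylon membranes spotted with bovine cDNA were probed with it. A level is the log2 signal of a spot minus the mean of the same array over its 10184 cDNA probes, so 0 is the array mean, and differences are SCNT High minus SCNT Med on this log2 scale. Median spot signal lay between 41.4 and 102 brightness units on SCNT High arrays and between 22.9 and 162 on SCNT Med arrays. Median signal over local background lay between 5.07 and 6.94 in SCNT High and between 5.06 and 8.99 in SCNT Med. A spot of water, which carries no cDNA, gives the level of an empty spot. On each array 7735 to 9813 cDNA spots exceeded its brightness. The arrays were placed here in 3 quantification sessions, inferred from the date in the scan record of each array. Dates on adjoining days counted as 1 session. SCNT High had 3, 3 and 4 arrays in sessions 1, 2 and 3. SCNT Med had 7 arrays in session 1, 3 in session 2 and none in session 3. The 4 SCNT High arrays of session 3 had 2067 to 2847 cDNA spots marked as poor by the quantification software, and no other array of the pair had any. Their median signal over background lay between 5.07 and 5.48, against 6.16 to 6.94 on the other SCNT High arrays. The water spot lay at -1.47 to -1.25 on these 4 arrays and at -2.30 to -1.55 on the other SCNT High arrays. On SCNT Med arrays it lay at -2.11 to -1.29.

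Of the named cell type markers, FN1 and APLP2 (endoderm) and PLIN2 (trophoblast) were brighter than the water spot on at least 19 of the 20 arrays each. Most cDNA spots passed this mark, 7735 to 9813 of 10184 on each array, so it does not show that a cell type was present. A control spot of POU5F1, the pluripotency factor of the epiblast, was also brighter than water on all 20 arrays. For the same reason this does not tell whether disc tissue was left in the samples. Its level was -0.39 ± 0.42 in SCNT High arrays (SD, n = 10) and -0.15 ± 0.37 in SCNT Med arrays (SD, n = 10). The difference of -0.23 did not pass a two-sided permutation test (p = 0.205, adjusted p = 0.41 over 4 control comparisons). No spot on the array was tied here to endometrium or blood, so these tissues were not checked.

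Expression in the EE tissues of SCNT High and SCNT Med differed at 1 cDNA probe, BF041564, which was more weakly expressed in SCNT High, and at none once session was a block (limma, 0 called, smallest adjusted p = 0.804) or the session 3 arrays were left out (0 called, smallest adjusted p = 0.999). In the fit of all 20 arrays without a block it was the only one of 10184 probes past a Benjamini-Hochberg adjusted p of 0.10 in limma, 0.00982% of those tested. At an unadjusted p under 0.05 there were 687 probes (6.75%). Expression in SCNT High was the stronger at 318 of these (3.12%) and the weaker at 369 (3.62%). Centring on the array median instead of the mean turned this split to 233 higher of 725. No probe separated the groups completely, with all arrays of one group above all of the other (0% of 10184). Differences of at least 1 on the log2 scale occurred at 45 probes (0.442%), 18 higher (0.177%) and 27 lower (0.265%) in SCNT High. Of the 27 lower probes, 25 had both group means above that of the water spot, against 11 of the 18 higher ones. Differences over all probes ran from -2.00 to 2.14, with a median of 0.02.

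**Figure D1:**
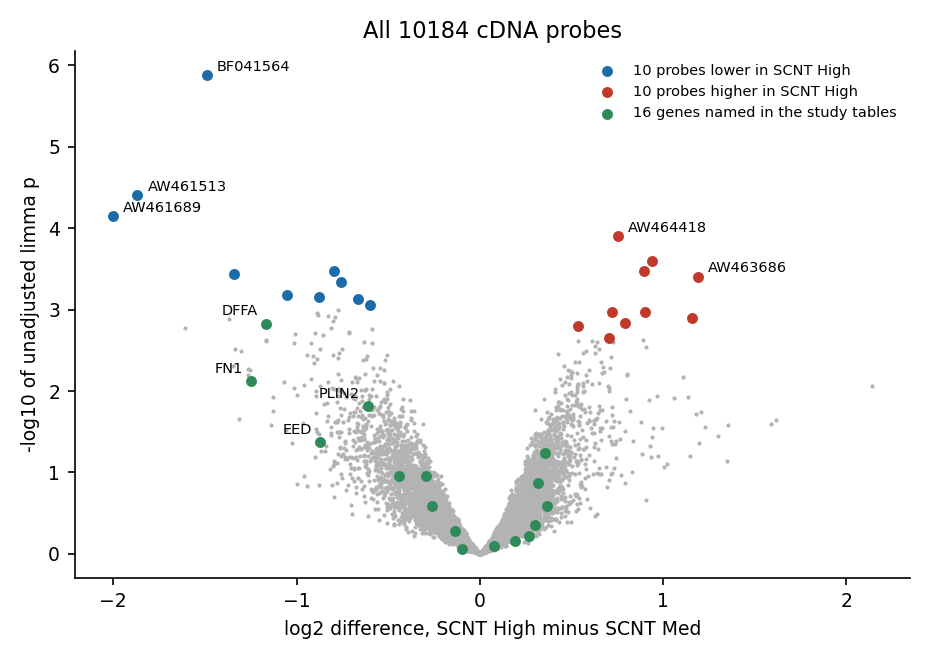
Each point is 1 of the 10184 cDNA probes, with its log2 difference (SCNT High minus SCNT Med) on the x axis and the negative log10 of its unadjusted limma p on the y axis. BF041564 stands alone at the top left, with a difference of -1.49, and the 2 probes with the most negative differences, AW461689 and AW461513, follow it.

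The distance between the groups as whole profiles did not pass its test. The root mean square over probes of the difference between the group means was 0.27, where arrays with permuted labels gave 0.25 on average (two-sided permutation test, p = 0.22). With labels permuted within sessions the p was 0.517. Within session 1 the same distance was 0.32 (3 against 7 arrays), and within session 2 it was 0.48 (3 against 3 arrays). Within SCNT High alone, the arrays of session 3 lay 0.41 from those of sessions 1 and 2 (4 against 6 arrays), and sessions 1 and 2 lay 0.51 apart (3 against 3 arrays). Means over fewer arrays are less precise, which widens such distances. Single arrays lay on average 0.53 ± 0.12 (SD, n = 10) from the mean of the other SCNT High arrays and 0.63 ± 0.17 (SD, n = 10) from that of the other SCNT Med arrays (difference -0.09, two-sided permutation p = 0.184). In SCNT High the array farthest from its group was BC245, at 0.82, and in SCNT Med it was BC30, at 1.06. This difference in spread moved with the arrays included. It was -0.016 without the 4 arrays of session 3 (permutation p = 0.906), -0.036 without BC30 (SCNT Med replicate 10, permutation p = 0.48) and -0.13 without BC245 (SCNT High replicate 5, permutation p = 0.0181). With the median absolute deviation in place of the root mean square it was -0.041 (permutation p = 0.486).

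BF041564 was lower in SCNT High by 1.49, a 2.81-fold difference in signal. Its level in SCNT High ranged from 0.15 through a median of 0.82 to 1.59. In SCNT Med it ranged from 1.00 through 2.41 to 3.45. The groups overlapped through 1 SCNT Med array of session 1, BC123, at 1.00, and 9 of the 10 SCNT Med arrays lay above every SCNT High array. The mean was 0.84 ± 0.43 in SCNT High arrays (SD, n = 10) and 2.33 ± 0.63 in SCNT Med arrays (SD, n = 10), with a standard error of the difference of 0.23 and a 95% interval from -1.97 to -1.01 (limma, adjusted p = 0.0132). Its spot was brighter than water on all 20 arrays and marked as poor on none.

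Within session 1 the BF041564 mean was 1.31 in SCNT High and 2.33 in SCNT Med, and within session 2 it was 0.69 and 2.34. The 4 SCNT High arrays of session 3 had a mean of 0.61. With session as a block the difference was -1.28 with an unadjusted p of 0.000106, which is no longer past the threshold over all probes (limma, adjusted p = 0.804). Without the arrays of session 3 the difference was -1.33 with an unadjusted p of 0.000137 (limma, adjusted p = 0.999). The call held without any single array, with differences from -1.64 (without BC123) to -1.37. The means of the other groups lay between these 2 means. SCNT Low had a mean of 1.72 ± 0.51 (SD, n = 10) and IVP one of 1.55 ± 0.68 (SD, n = 10). In SCNT Low both arrays of session 3 were the lowest of their group, at 1.05 and 1.04. In SCNT High, by contrast, BC252 and BC244 of session 2, at 0.45 and 0.74, lay below BC272 of session 3, at 0.84. The part of the session in the difference was not tested otherwise. No table used here gives a gene name for this accession, and its sequence was not used here.

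**Figure D2:**
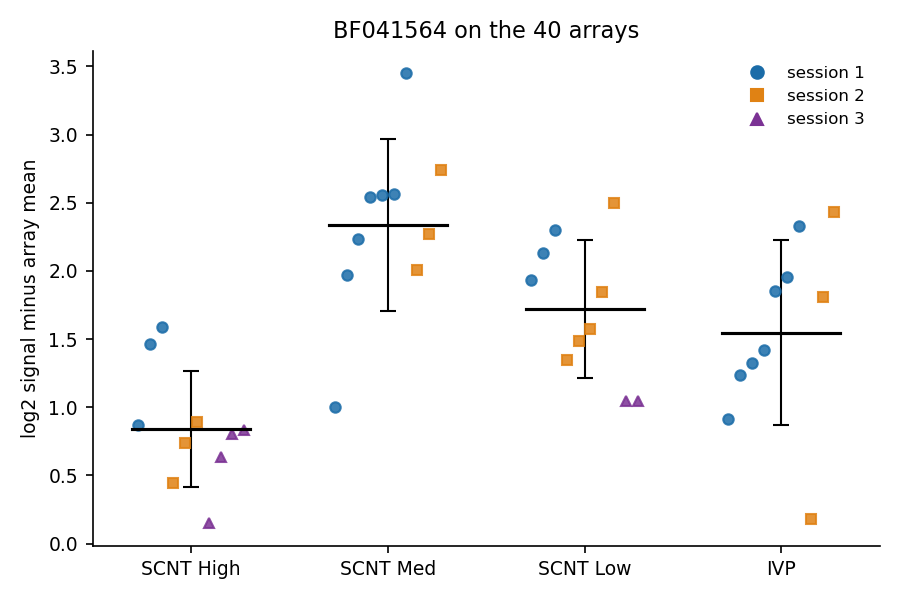
Each point is 1 array, the y axis is the log2 signal of BF041564 minus the array mean, and lines and bars give the mean and SD of each group of 10 arrays. SCNT High sits between 0.15 and 1.59, and all but 1 of the SCNT Med arrays lie above it. Symbols mark the session.

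Of the 10 probes with the smallest p among those lower in SCNT High, AW461513, AW461689 and AW465234 varied together from array to array. AW461513 ranged from 1.94 through a median of 3.19 to 5.72 in SCNT High and from 4.13 through 5.03 to 6.34 in SCNT Med. All SCNT High arrays but BC242, at 5.72, lay below the lowest SCNT Med array. The difference was -1.87 with a standard error of 0.37, a 3.65-fold difference (limma, adjusted p = 0.198).

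AW461689 ranged from 1.65 through 2.68 to 5.05 in SCNT High and from 3.80 through 4.80 to 6.51 in SCNT Med. It had the most negative difference of all probes, -2.00 with a standard error of 0.42, a 4.01-fold difference (limma, adjusted p = 0.238). AW465234 ranged from 1.71 through 2.67 to 4.57 in SCNT High and from 3.21 through 4.11 to 5.67 in SCNT Med, with a difference of -1.34 and a standard error of 0.32 (limma, adjusted p = 0.443). On all 3 probes BC242, an array of session 1, was the highest of SCNT High. Without BC242 (SCNT High replicate 2) the 3 probes passed the threshold, with limma adjusted p of 0.00298 for AW461513, 0.021 for AW461689 and 0.0737 for AW465234, and 4 probes were called instead of 1. Under the structural variance model, which gives each group its own variance, AW461513 (adjusted p = 0.0286) and AW461689 (adjusted p = 0.0371) passed as well.

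All 3 were lower in SCNT High within session 1, by 0.99, 1.40 and 0.92 in the order above, and within session 2, by 1.93, 1.35 and 0.87. The SCNT High arrays of session 3 had the lowest means, 2.72, 2.28 and 2.36, and with session as a block the differences shrank to -1.38, -1.38 and -0.90. Around their group means, the levels of AW461513 and AW465234 correlated with r = 0.864 over the 20 arrays, those of AW461689 and AW465234 with r = 0.841, and those of AW461513 and AW461689 with r = 0.779. The points share their arrays and labelling reactions, and no sequence was at hand to see whether the probes overlap. The median absolute r over the 190 pairs among the 20 probes described here was 0.221.

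**Figure D3:**
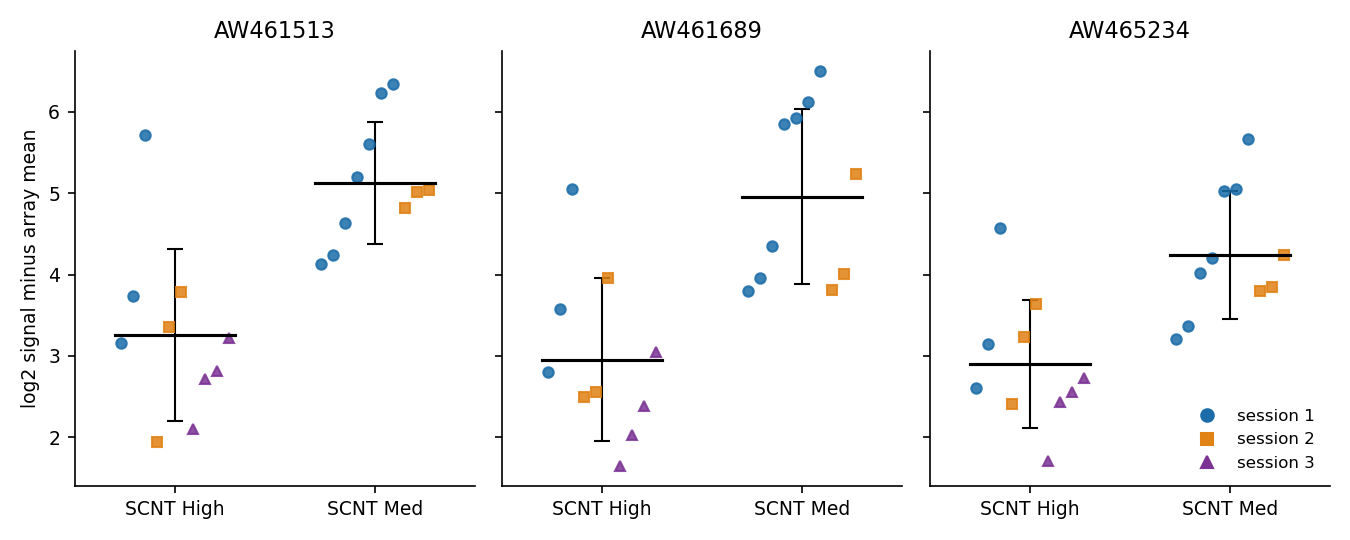
Each panel shows 1 probe on the 20 arrays, as log2 signal minus the array mean, with the mean and SD of each group of 10 arrays and symbols for the session. Of the 10 SCNT High arrays, 9, 8 and 7 lie below all SCNT Med arrays on AW461513, AW461689 and AW465234, and the highest SCNT High array is BC242 on each.

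Beyond these 3 probes, 28 others followed their mean within groups with r above 0.7. Of those 28, 26 were lower in SCNT High and 14 had an unadjusted p under 0.05, all 14 of them lower, beside 6.75% of all probes and 3.62% lower. Their median difference was -0.55. Over all probes 46.3% had a difference below 0, and the median was 0.02. The 28 were picked by their likeness to probes that had been chosen for their difference, so the counts are a description. The closest were AW461719 (r = 0.931, difference -1.37), AW462280 (r = 0.898, difference -1.33), AW462074 (r = 0.872, difference -0.92) and AW463019 (r = 0.854, difference -1.30). These 4 were named after their values were seen.

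The remaining 6 of the 10 probes with the smallest p among those lower in SCNT High had differences between -1.05 and -0.60. BM365867 ranged from 0.87 through 2.12 to 3.57 in SCNT High and from 2.51 through 3.11 to 4.12 in SCNT Med. Its difference was -1.05, and 7 SCNT High arrays lay below all SCNT Med arrays. CN434050 ranged from 0.67 through 1.56 to 2.08 in SCNT High and from 1.62 through 2.24 to 2.82 in SCNT Med, with a difference of -0.80. On BF039106 (difference -0.76) 9 of the 10 SCNT Med arrays lay above all SCNT High arrays, whereas on BF040747 (difference -0.66) and BF045303 (difference -0.60) these were 5 and 7. AW463501, with a difference of -0.88, is spotted next to AW461689 in the same block of the membrane, and the levels of both correlated with r = 0.58 within groups. Whether signal of the neighbouring spot enters the value of AW463501 was not tested. The adjusted p of these 6 lay between 0.443 and 0.55 in limma, so none passed the threshold. All 10 lower probes kept their sign within session 1, within session 2 and with session as a block, where all 10 had an unadjusted p under 0.05. Since they were chosen for their p in the same arrays, this is a description.

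In the other direction no probe passed the threshold (limma, 0 called, 318 at an unadjusted p under 0.05). AW464418 had the smallest p, with levels from -1.12 through -0.66 to -0.28 in SCNT High and from -2.38 through -1.28 to -1.06 in SCNT Med. Of the SCNT High arrays, 9 lay above all SCNT Med arrays, and the difference was 0.75 with a standard error of 0.16, a 1.68-fold difference (limma, adjusted p = 0.316). On 3 of the 10 SCNT Med arrays its spot was no brighter than water. AW463686 had the most positive difference of these 10, 1.19 with a standard error of 0.29 (limma, adjusted p = 0.443). Its SCNT High levels ran from -1.04 through 0.66 to 1.63 and its SCNT Med levels from -1.53 through -0.47 to 0.23. The SCNT High array at -1.04 was BC245, and without it (SCNT High replicate 5) the difference was 1.37 and passed the threshold (limma, adjusted p = 0.0731).

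BF043585 (difference 0.94), AW466153 (1.16) and AW463686 also varied together, with r = 0.827 for BF043585 with AW466153 and r = 0.735 for AW463686 with AW466153. Their spots were brighter than water on 8, 8 and 9 of the 10 SCNT Med arrays, in this order. On BF043585 the SCNT High levels ran from -0.86 through 0.01 to 0.29 and the SCNT Med levels from -1.86 through -0.91 to -0.26. SCNT Low (0.24 ± 0.68, SD, n = 10) lay near SCNT High on this probe, and SCNT Med was the lowest of the 4 groups on BF043585, AW466153 and AW463686. The other probes of the 10 were AW463942 (0.90), BF043911 (0.79), CR552577 (0.70) and BM364536 (0.54), with limma adjusted p of 0.55 each. The spot of CR552577 was marked as poor on 4 arrays, the SCNT High arrays of session 3. Like the lower probes, the 10 higher ones kept their sign in both sessions that hold arrays of both groups. Only 5 of the 10 higher probes were brighter than water on all 20 arrays, against 8 of the 10 lower ones.

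For 2 of the 10 higher probes the level moved with the session. CR550815 was at 1.22 to 1.52 on the 4 SCNT High arrays of session 3, while the other 6 SCNT High arrays lay between -0.03 and 0.57 and the SCNT Med arrays between -0.70 and 0.24. The 2 SCNT Low arrays of session 3, at 1.17 and 1.16, lay just below these 4 and were the highest of their group. CR551523 behaved alike in SCNT High, with 0.14 to 0.47 in session 3 and -0.81 to -0.52 on the other arrays. The SCNT Low arrays of session 3 lay lower on it, at -0.09 and -0.005, but were again the highest of their group. Both probes correlated with r = 0.876 within groups. Their differences were 0.90 and 0.72 over all 20 arrays, but 0.47 and 0.39 with session as a block.

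The study's primer table ties 16 probes of the array to genes, and these were followed one by one. By the study's text, all but C5orf13 and PGAM5 were chosen among genes that differed in its own comparisons of groups. Those comparisons took in these arrays and others of conceptuses from artificial insemination, so the list is not independent evidence of its direction. None of the 16 passed the threshold (limma, smallest adjusted p = 0.55). At an unadjusted p under 0.05 there were 4 of 16, FN1, PLIN2, DFFA and EED, all lower in SCNT High, beside 6.75% of all probes. The median difference of the 16 was -0.11, against 0.02 for all probes. The quantitative PCR primers that the study designed for these 4 genes are shown because, with the accession, they fix which transcript is meant. They are written 5′ to 3′, forward before reverse.
FN1 forward: gcgattgtctgattctggctt
FN1 reverse: tctccctgacgatcccactt
PLIN2 forward: ggtgaccgagtctgagagtgc
PLIN2 reverse: gcaggtgtcagctcaagagga
DFFA forward: ggaaacctggcatctcagca
DFFA reverse: tagggtcctccttggcaacc
EED forward: caaatgcacaacgctgactca
EED reverse: tttatcgcagtcggtcccag

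FN1 (AW465534) encodes fibronectin, an extracellular matrix glycoprotein that cells bind through integrins, and in this tissue it marks the endoderm. Its level ran from -1.29 through a median of 1.71 to 2.38 in SCNT High and from 1.13 through 2.79 to 4.54 in SCNT Med. The groups overlapped, with 6 SCNT Med arrays above every SCNT High array and 2 SCNT High arrays below every SCNT Med array. The difference was -1.25 with a standard error of 0.43, a 2.37-fold difference (limma, unadjusted p = 0.00762, adjusted p = 0.659). It was -0.87 within session 1, -1.65 within session 2 and -1.19 with session as a block. SCNT Low had a mean of 1.38 ± 0.39 (SD, n = 10) and IVP one of 2.01 ± 0.49 (SD, n = 10), so SCNT Med, at 2.69 ± 1.03 (SD, n = 10), had the highest mean of the 4 groups and SCNT Low and SCNT High (1.45 ± 1.11, SD, n = 10) were close.

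APLP2 (BF046406), a membrane protein of the amyloid precursor family, is the other endoderm marker on the list. It ran from -1.58 through 0.29 to 0.87 in SCNT High and from -0.30 through 0.48 to 1.22 in SCNT Med. The difference was -0.44 with a 95% interval from -0.99 to 0.11 (limma, adjusted p = 0.777), and -0.26 without BC245 (SCNT High replicate 5). Around the group means FN1 and APLP2 correlated with r = 0.871 over the 20 arrays, which share their labelling reactions. On both probes BC245 was the lowest array of SCNT High. The share of endoderm in each sample was not measured, and fewer endoderm cells and less RNA per cell cannot be told apart in whole EE tissue.

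PLIN2 (BF043749), a coat protein of lipid droplets, is here the marker of the trophoblast. It ran from -1.49 through -0.46 to 0.29 in SCNT High and from -0.45 through 0.13 to 1.43 in SCNT Med. The difference was -0.61 with a standard error of 0.23 (limma, unadjusted p = 0.0153, adjusted p = 0.696), -0.57 within session 1 and -0.75 within session 2. So the trophoblast marker and both endoderm markers all had lower means in SCNT High, and none passed the threshold.

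DFFA (BF045264), the inhibitor of the nuclease that cuts DNA in apoptosis, had the smallest p of the 16 genes. It ran from -3.74 through -1.94 to -1.41 in SCNT High and from -1.97 through -1.16 to 0.73 in SCNT Med. Its spot was brighter than water on only 4 SCNT High and 7 SCNT Med arrays, and was marked as empty on 2 of the 20 arrays. The difference was -1.16 with a standard error of 0.32 (limma, unadjusted p = 0.00149, adjusted p = 0.55). The 4 SCNT High arrays of session 3 had a mean of -3.05, against -1.71 and -1.58 in sessions 1 and 2. With session as a block the difference was -0.58 and the unadjusted p 0.0779.

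EED (CR552963) encodes a core subunit of Polycomb repressive complex 2, which methylates histone H3. It ran from -0.58 through 1.52 to 2.48 in SCNT High and from -0.19 through 2.01 to 3.81 in SCNT Med. The groups overlapped over most of their range, with 4 SCNT Med arrays above all SCNT High arrays. The difference was -0.87 with a 95% interval from -1.71 to -0.03 (limma, unadjusted p = 0.0424, adjusted p = 0.733), and -0.73 with session as a block (unadjusted p = 0.14). The EED spot was marked as poor on all 4 SCNT High arrays of session 3. Without these 4 arrays the difference was -0.87 (limma, unadjusted p = 0.102).

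**Figure D4:**
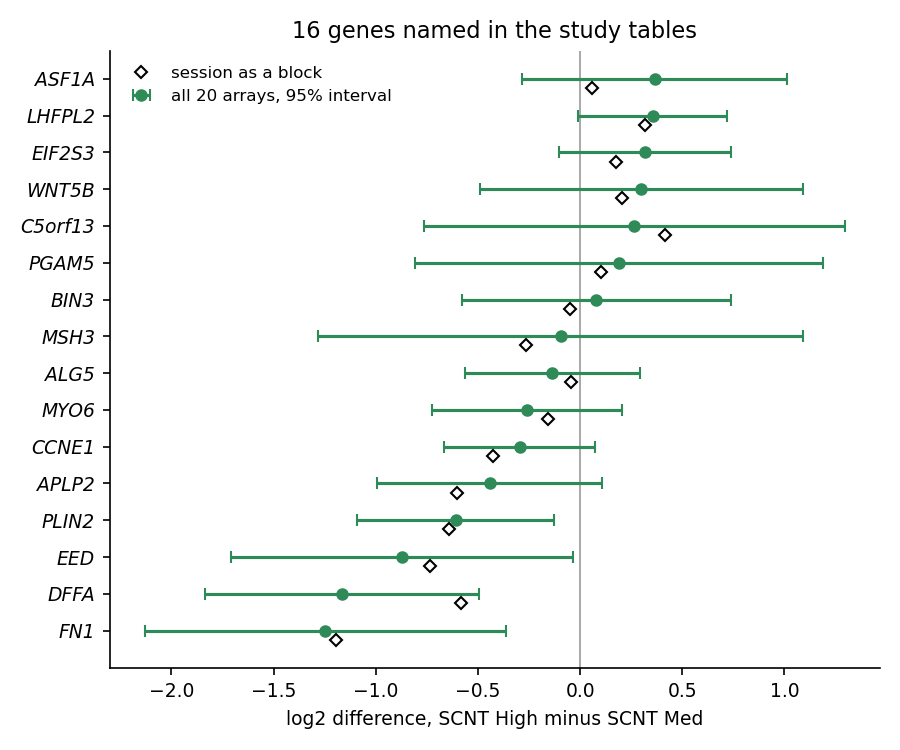
Filled points give the log2 difference (SCNT High minus SCNT Med) of each of the 16 genes over the 20 arrays with its 95% interval, and open diamonds the difference with session as a block. The intervals of FN1, DFFA, EED and PLIN2 lie below 0 and the other 12 cross it. The diamond of DFFA lies at -0.58, its point at -1.16.

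The other 11 genes had differences between -0.30 and 0.37 whose 95% intervals all included 0. CCNE1 (BF045665), the cyclin that drives entry into S phase, had a difference of -0.30 (interval -0.67 to 0.07). MYO6 (AW463989), a motor protein found in microvilli, had one of -0.26 (interval -0.72 to 0.21) and ALG5 (BF040851), an enzyme of N-glycosylation, one of -0.14 (interval -0.56 to 0.29). LHFPL2 (BF041292) had a difference of 0.35 (interval -0.01 to 0.72), but its spot was brighter than water on only 5 SCNT High and 2 SCNT Med arrays. For EIF2S3 (BF043574), a subunit of the initiation factor that brings the first tRNA to the ribosome, the difference was 0.32 over all arrays, yet 0.70 within session 1 and -0.56 within session 2. ASF1A (CR552898), a histone chaperone, likewise had 0.37 over all arrays, 0.54 within session 1 and -0.61 within session 2. WNT5B (CN435723), a secreted ligand, had a difference of 0.30 (interval -0.49 to 1.09).

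C5orf13 (CN432421), PGAM5 (CN433942), BIN3 (CN434085) and MSH3 (CR552847) had close group means and a wider range in SCNT Med. Their differences were 0.27, 0.19, 0.08 and -0.09, and each of the 4 changed sign under at least 1 alternative setting or with 1 array left out. MSH3, a DNA mismatch repair protein, ran from 1.61 through 2.46 to 3.80 in SCNT High but from -0.15 through 3.17 to 6.01 in SCNT Med. C5orf13 ran from 2.27 to 4.26 in SCNT High and from 0.70 to 5.54 in SCNT Med. The SDs in SCNT High and SCNT Med were 0.57 and 1.68 for C5orf13, 0.43 and 1.67 for PGAM5 (a mitochondrial phosphatase), 0.36 and 1.04 for BIN3, and 0.67 and 1.95 for MSH3. The highest SCNT Med array on C5orf13, PGAM5 and MSH3 was BC158, the lowest was BC122. Around the group means the levels of C5orf13 and PGAM5 correlated with r = 0.956, those of PGAM5 and BIN3 with r = 0.92, and those of PGAM5 and MSH3 with r = 0.781. Across all probes the SD was larger in SCNT Med for 63.5%, with a median of 0.43 in SCNT High and 0.49 in SCNT Med. For the 16 genes it was larger in 12. The difference in spread of single probes was not tested.

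GAPDH, the glycolytic enzyme commonly used as a reference gene, stood higher in SCNT High. It is spotted 10 times on the membrane as a control and was not part of the test across cDNA probes. The mean of its 10 spots ran from 3.01 through a median of 3.26 to 4.38 in SCNT High and from 1.74 through 2.44 to 3.48 in SCNT Med. The 10 SCNT High arrays all lay above 7 of the SCNT Med arrays, and the other 3 SCNT Med arrays, from 3.19 to 3.48, fell within the range of SCNT High. The means were 3.37 ± 0.38 (SD, n = 10) and 2.58 ± 0.59 (SD, n = 10), a difference of 0.79 or 1.72-fold (two-sided permutation test, p = 0.00226, adjusted p = 0.00904 over 4 control comparisons). Each of the 10 spots had a higher mean in SCNT High, by 0.53 to 0.96.

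Within session 1 the GAPDH difference was 0.66 (exact permutation p = 0.15, 3 against 7 arrays), and within session 2 it was 1.00 (exact permutation p = 0.2, 3 against 3 arrays, where 0.10 is the smallest p possible). With session as a block it was 0.81, over the 6 SCNT High and 10 SCNT Med arrays of sessions 1 and 2 (permutation p = 0.0211). Without any single array it stayed between 0.67 and 0.89 (permutation p from 0.000801 to 0.00457). SCNT Low had a GAPDH mean of 3.20 ± 0.60 (SD, n = 10) and IVP one of 2.94 ± 0.30 (SD, n = 10), so that SCNT Med was the lowest of the 4 groups. Actin, the other reference gene with 10 spots, had levels of 2.92 ± 0.35 in SCNT High arrays (SD, n = 10) and 2.84 ± 0.33 in SCNT Med arrays (SD, n = 10). Its difference of 0.08 did not pass the test (two-sided permutation test, p = 0.591, adjusted p = 0.712). The water spot itself lay at -1.64 ± 0.31 in SCNT High arrays (SD, n = 10) and -1.69 ± 0.29 in SCNT Med arrays (SD, n = 10).

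**Figure D5:**
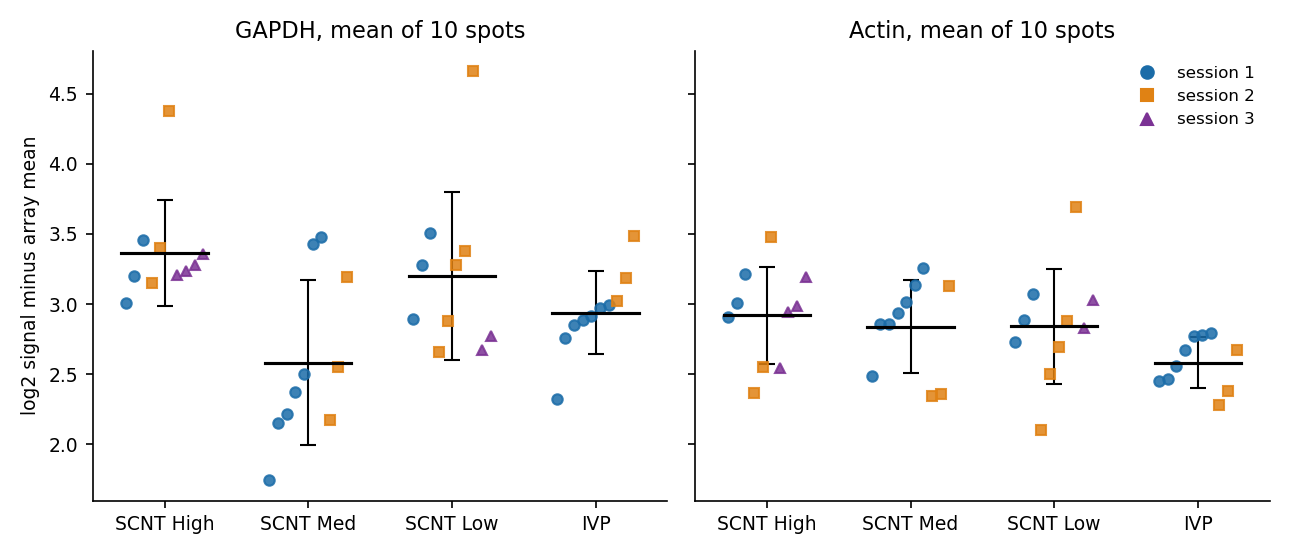
Each point is the mean of the 10 GAPDH spots (left) or the 10 actin spots (right) of 1 array, as log2 signal minus the array mean, with the mean and SD of each group of 10 arrays. The SCNT High arrays lie at 3.01 or above on GAPDH, where 7 of the 10 SCNT Med arrays lie below that, and the groups lie side by side on actin.

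The number of small p also moved with the session. With session as a block limma called 0 probes, and 461 (4.53%) had an unadjusted p under 0.05. Without the 4 arrays of session 3 there were again 0 calls and 401 such probes (3.94%). Of the 687 probes at this level over all arrays, 283 (41.2%) were among the 461, which are 61.4% of these. SCNT Med has no array in session 3, so these 4 arrays have no SCNT Med counterpart within their session.

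The array combines clones from several cDNA libraries, and the accession prefix separates the vector that carries them. Of the 6885 AW and BF probes, 526 (7.64%) had an unadjusted p under 0.05, and of the 2250 CR, CN and CV probes 120 (5.33%). Among the 1049 probes with other names these were 41 (3.91%), 31 higher and 10 lower in SCNT High. The AW and BF probes had 236 higher and 290 lower, and the CR, CN and CV probes 51 higher and 69 lower. The only call lay among the AW and BF probes. The median difference was 0.03 for AW and BF probes, -0.01 for CR, CN and CV probes and 0.05 for the others. Among the 25% of probes with the highest signal, 136 probes were lower and 70 higher in SCNT High at this level, and among the 25% with the lowest signal 55 were lower and 86 higher. Of the 27 probes lower by at least 1, 20 belonged to the 25% with the highest signal.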

How the data were processed

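EE tissue RNA of 10 SCNT High and 10 SCNT Med conceptuses, grouped by the donor line in the labels, was hybridised to nylon membranes spotted with cDNA, with an array for each conceptus. The authors deposited spot intensity and background intensity as averages over pixels, with no subtraction or normalization, a shape score that was not used in any test, and marks for poor or empty spots. A deposited table of log2 values holds the same arrays. Centred on array means, differences between its columns equal those of the log2 signal (slope 1.00, Pearson r 1.00). Its column medians lie between -0.12 and 0.06, and the set of arrays on which its probes were centred is not given in the sources used here.

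Here log2 spot signals, with no background subtracted, were centred per array by subtracting the mean of its 10184 cDNA probes. Tests left out 30 control spots and 154 spots that carry no name. Group differences were fitted by lmFit and eBayes of limma 3.58.1 (R 4.3.3), with Benjamini-Hochberg adjustment over all probes and a threshold of 0.10. Single values were compared by two-sided permutation with 100000 resamples in Python 3.11.15 (numpy 2.4.6, scipy 1.17.1, pandas 2.3.3, figures with matplotlib 3.10.9). The methods name SMVar, for which a structural variance model written after its description stood in as an alternative. The fits were tested on simulated data.

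Probes named were those past the threshold, the 10 higher and 10 lower with the smallest p and a mean level above the water spot, the 16 genes of the primer table, and the GAPDH and actin spots. Members and lists were chosen with earlier results of these data known. Alternatives were normexp with an offset of 50, quantile normalization, median centring, the authors' table, filters on the 25% dimmest probes, on probes not above water and on poor spots, all 4 groups in one model, array weights, a variance trend, session as a block, single sessions, no session 3, thresholds of 0.05 and 0.20, and each array left out. A session block without session 3 was added after seeing the data. The study counts fewer pregnant cows than conceptuses, so some conceptuses shared a recipient, and the labels do not say which. The p-values treat the arrays as independent, and may be too small where a recipient was shared. The number of arrays limits the precision.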

Additional observations from a re-analysis of the deposited data

Results flagged for a closer look

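Of 80 groups of 10 arrays examined (40 results in SCNT High and in SCNT Med), 10 held an array far from the others, where its gap to the next array, as a share of the range of the group, exceeded Dixon's 95% critical value. Chance alone gives such a gap in about 1 of 20 groups, which is 4 of 80.

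BC245, an SCNT High array of session 2, appeared 3 times. It had the highest mean of the GAPDH spots, at 4.38 with the next array at 3.46, the lowest FN1 level, at -1.29 with the next at 0.42, and the lowest BF040747 level, at -1.95 with the next at -1.19. BC242, an SCNT High array of session 1, was at 5.72 on AW461513, with the next array at 3.78. In SCNT Med, BC30 of session 2 had the largest deviation of an array from its group, 1.06 with the next at 0.68, and the lowest AW464418 level, at -2.38 with the next at -1.59. BC192 of session 2 was the highest on PLIN2, at 1.43 with the next at 0.27, and the lowest on EED, at -0.19 with the next at 1.82. BC122 of session 1 was the highest on DFFA, at 0.73 with the next at -0.84, and BC158 of session 1 the highest on CR551523, at -0.19 with the next at -0.81. No cause of these values was tested.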

How the results depend on the processing

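The count of 1 called probe was the same under median centring, quantile normalization, normexp, the authors' table, all 4 groups in one model, a variance trend, the 3 filters on probes or spots and a threshold of 0.05, with an adjusted p of BF041564 between 0.00411 and 0.0559. It was 0 with session as a block, in session 1 alone, in session 2 alone, without session 3, and without session 3 with the block. It was 2 at a threshold of 0.20, 3 under the structural variance model and 12 with array weights, of which 6 were higher in SCNT High. The weights were largest on BC273 (2.27) and BC272 (2.10), SCNT High arrays of session 3, and smallest on BC30 (0.21). The 12 included CR550815 and CR551523, whose level moved with the session. The cause of the differing counts was not tested. Leaving out 1 array gave 1 to 4 calls. Without session 3 the fit has 16 arrays instead of 20. The probes at an unadjusted p under 0.05 were 687 in all, between 151 (session 2 alone) and 1413 (array weights), and 481 with normexp. The share of them higher in SCNT High was 46.3%, but 32.1% with median centring and 68.4% in session 1 alone.

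The distance between group means lay between 0.27 and 0.29 without any 1 array (permutation p from 0.0663 to 0.401) and passed its test under no alternative. The difference in spread lay between -0.13 and -0.036 without any 1 array (-0.036 without BC30) and was -0.016 without session 3 (permutation p = 0.906). It passed its test without BC245 (-0.13, permutation p = 0.0181) and under none of the other settings run.

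Among the named genes, those not past the threshold that changed sign were LHFPL2 (-0.15), EIF2S3 (-0.56), WNT5B (-0.036), ASF1A (-0.61) and BIN3 (-0.088) in session 2 alone, BIN3 in session 1 alone (-0.024), with the session block (-0.050 with and without session 3) and without session 3 (-0.015), C5orf13 with array weights (-0.069), and MSH3 with quantile normalization (0.032) and without poor spots (0.00077). Leaving out 1 array gave -0.088 to 0.47 for PGAM5, -0.063 to 0.29 for BIN3 and -0.41 to 0.27 for MSH3. The other named probes and the GAPDH and actin spots kept their sign throughout. DFFA has no value once the 25% dimmest probes are left out, and LHFPL2 none under that filter or the water filter. GAPDH and actin were run with median centring, without session 3, in single sessions, with the block (arrays of sessions 1 and 2 only) and without each array.

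No paired analysis was possible because the replicate numbers only follow accession order and the labels pair no conceptuses.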
